A study of Mus musculus with 8 samples.

Results

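Fatty acid oxidation genes and targets of the peroxisome proliferator-activated receptors (PPARs) were followed in epithelial cells of the mouse distal colon. The 32 members were taken by gene symbol through the Ensembl gene IDs of the deposited table, and all 32 were found among its 54141 genes. The rule that picks them uses no measured value, but the list was chosen with earlier results of these data known. They were split by the place or role of their products into 17 mitochondrial, 6 peroxisomal, 6 lipid-handling and 3 receptor genes. The RNA came from cells that EDTA had released from distal colon pieces and that had gone through a cell strainer. Wild-type mice (WT, 4 libraries) were compared with mice homozygous for a mutant Degs2 allele (Degs2_KO, 4 libraries), both on a c57bl6/j background and with no treatment named. Degs2 encodes a lipid desaturase and hydroxylase that makes phytoceramides. The age and sex of the mice, the part of Degs2 that the allele removes and whether each library is a separate mouse are not stated in the labels, and the p-values therefore measure how these libraries vary, which may in part be technical.

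As background, mitochondria break down fatty acids by moving them through the carnitine shuttle (Cpt1a, Slc25a20, Cpt2) and shortening them in repeated cycles of dehydrogenation, hydration, a further dehydrogenation and thiolysis. Electrons from the first step pass through the electron transfer flavoprotein. Peroxisomes run a parallel cycle on very long and branched chains and hand shortened products on as carnitine esters. PPARs are nuclear receptors that fatty acids activate; with the retinoid X receptor they bind a direct repeat of the hexamer AGGTCA spaced by a single base (DR1), and many genes of both cycles are known targets. Colonocytes oxidise butyrate as a main fuel, and PPAR-gamma and PPAR-delta are known to be well expressed in them.

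Totals ranged from 32.8 to 49.8 M fragments per library. Degs2 itself was at 122 ± 20.1 CPM (fragment counts scaled to a common library size) in the WT libraries and 58.2 ± 9.08 CPM in the mutant libraries (SD, n = 4 each), and the groups did not overlap. Its log2 fold change was -1.07 ± 0.15 (SE), with an exact 2-sided permutation p of 0.0286, the smallest that 70 assignments allow, and an adjusted p of 0.796 by edgeR over all genes (3.3e-06 by DESeq2). WT replicate 1 and Degs2_KO replicate 3 stood apart from the other 6 libraries on the first principal component of all tested genes, at -53.9 and -59.1 against -1.09 to 43. Hoxd13, a gene of the most posterior gut, was at 0.699, 84.4, 85.3 and 38.8 CPM in WT replicates 1 to 4 and 60.7, 47.7, 0.312 and 42.5 CPM in Degs2_KO replicates 1 to 4, so both of those libraries were near 0 and the other 6 were not. The summed level of the 8 distal position genes with values was 146 and 144 CPM against 370 to 496 CPM in the other 6. The main results are therefore also given without both libraries. The epithelial label held: all 12 epithelial markers passed the count filter, with a summed level of 17600 to 21900 CPM in WT and 18200 to 20500 CPM in Degs2_KO.

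Other cells that could carry these genes were low or absent by their defining markers. Of 10 adipocyte markers 4 passed the filter; Lep and Cfd were at 0 in every library, Adipoq, Fabp4, Plin1 and Retn were at 0.0723 CPM or less in each, and the summed level, 181 to 262 CPM in WT and 199 to 239 CPM in Degs2_KO, came mostly from Pck1, which colon epithelium also expresses. The other 9 adipocyte markers summed to 15.9 CPM in WT replicate 1 and 21.5 CPM in Degs2_KO replicate 3, against 7.45 to 12.1 CPM in the other 6, and 3 of them (Cidec, Lipe and Car3) had those libraries as their 2 highest. The 10 endothelial markers summed to 3.83 to 6.97 CPM in WT and 3.32 to 4.6 CPM in Degs2_KO, with Emcn at 0 throughout and Cdh5 and Cldn5 at 0.0955 CPM or less. Pecam1 was the largest endothelial term, at 1.47 to 5.11 CPM over the libraries. The 12 myeloid markers summed to 30.4 to 41.7 CPM in WT and 27.8 to 48.3 CPM in Degs2_KO, and the 10 fibroblast markers to 25.0 to 56.0 CPM in WT and 16.1 to 61.6 CPM in Degs2_KO. Cd14 was the largest myeloid term, at 21.1 to 40.3 CPM. Fn1 was the fibroblast marker of widest range, at 4.63 to 48.4 CPM. In such bulk samples, fewer cells of a type and less RNA per cell cannot be told apart.

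The promoters show where a PPAR could sit by sequence. RefSeq windows (GRCm38.p6) from 250 bases before to 50 bases after a gene start matched 29 of the 32 members, in 31 windows; Angptl4, Decr1 and Acaa2 had no entry. Both strands were searched for the DR1 motif, AGGTCA followed by any base N and then AGGTCA again. At most 2 of its 12 fixed letters were allowed to differ, which also admits DR1 motifs of other nuclear receptors such as HNF4. Such a match was found in 5 of 31 member windows (16.1%) and in 3.86% of all 32851 windows, and no member window held an exact match. The member share rests on 5 windows of a list chosen in part for PPAR targets, and the difference between the shares was not tested. Pdk4, a known target, differed at 4 letters at best. Sites outside the windows were not searched. The 4 matches that lie before a gene start are shown because the levels of their genes differ so widely, from Fabp1 and Cd36 near 0 to Etfa at over 100 CPM. Each is printed 5′ to 3′ on the gene's strand with the 13 letters of the match in capitals; all 4 read on the opposite strand, so they appear as TGACCT-like repeats.
Fabp1: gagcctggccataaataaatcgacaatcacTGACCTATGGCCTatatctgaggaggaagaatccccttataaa
Cd36: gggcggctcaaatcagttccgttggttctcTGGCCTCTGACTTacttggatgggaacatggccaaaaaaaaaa
Etfa: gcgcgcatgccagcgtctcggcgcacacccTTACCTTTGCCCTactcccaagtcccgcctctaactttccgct
Plin2: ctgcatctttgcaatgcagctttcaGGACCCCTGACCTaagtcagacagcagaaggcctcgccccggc

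These stretches lie at chr6:71199782-71199854 (plus strand), chr5:17835917-17835989 (minus strand), chr9:55512278-55512350 (minus strand) and chr4:86670242-86670309 (minus strand). The Fabp1 match differed from the motif at 1 fixed letter and began 67 bases before the gene start, and the other 3 differed at 2. The Cd36 window belongs to a RefSeq transcript start inside the gene. The fifth match, of Slc25a20, lies past the gene start and is not shown. A match is a description of letters and not of binding.

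Most members were well expressed, and no member passed the test for a difference between the genotypes. The summed level of the 32 members was 4057, 3223, 3447 and 3961 CPM in WT replicates 1 to 4 and 3814, 3337, 4467 and 3214 CPM in Degs2_KO replicates 1 to 4. The groups overlapped, and the highest library of each was WT replicate 1 and Degs2_KO replicate 3. The count filter passed 30 members; Fabp1 and Cd36 did not pass. Of these 30, edgeR's quasi-likelihood test called 0 with Benjamini-Hochberg adjustment over all 16132 genes tested, where the background was also 0 (0%). At an unadjusted p under 0.05 it found 0 members, against 1.13% of all genes, and 0 members had groups that did not overlap, against 1.04%. DESeq2, limma-trend and limma-voom also called 0 members. The fitted level was higher in Degs2_KO for 18 members and below WT for the other 12; the median of their log2 fold changes was 0.022, beside -0.007 for all genes tested. Across all genes 47.4% were fitted higher.

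The data bounded the size of a change for most of the set. The fold change had a 95% interval inside 1.5-fold for 22 of the 30 members (60.4% of all genes) and inside 2-fold for 26 (81.9%). By role, the narrower bound held for 15 of 17 mitochondrial, 5 of 6 peroxisomal, 1 of 4 tested lipid-handling and 1 of 3 receptor genes. The remaining 4 members, Pdk4, Acaa1b, Fabp2 and Angptl4, had intervals reaching past 2-fold, and they are the 4 with the widest spread between libraries. Without WT replicate 1 and Degs2_KO replicate 3, edgeR called 0 members and found 0 at an unadjusted p under 0.05 (4.01% of genes), and the median log2 fold change was -0.015.

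**Figure D1:**
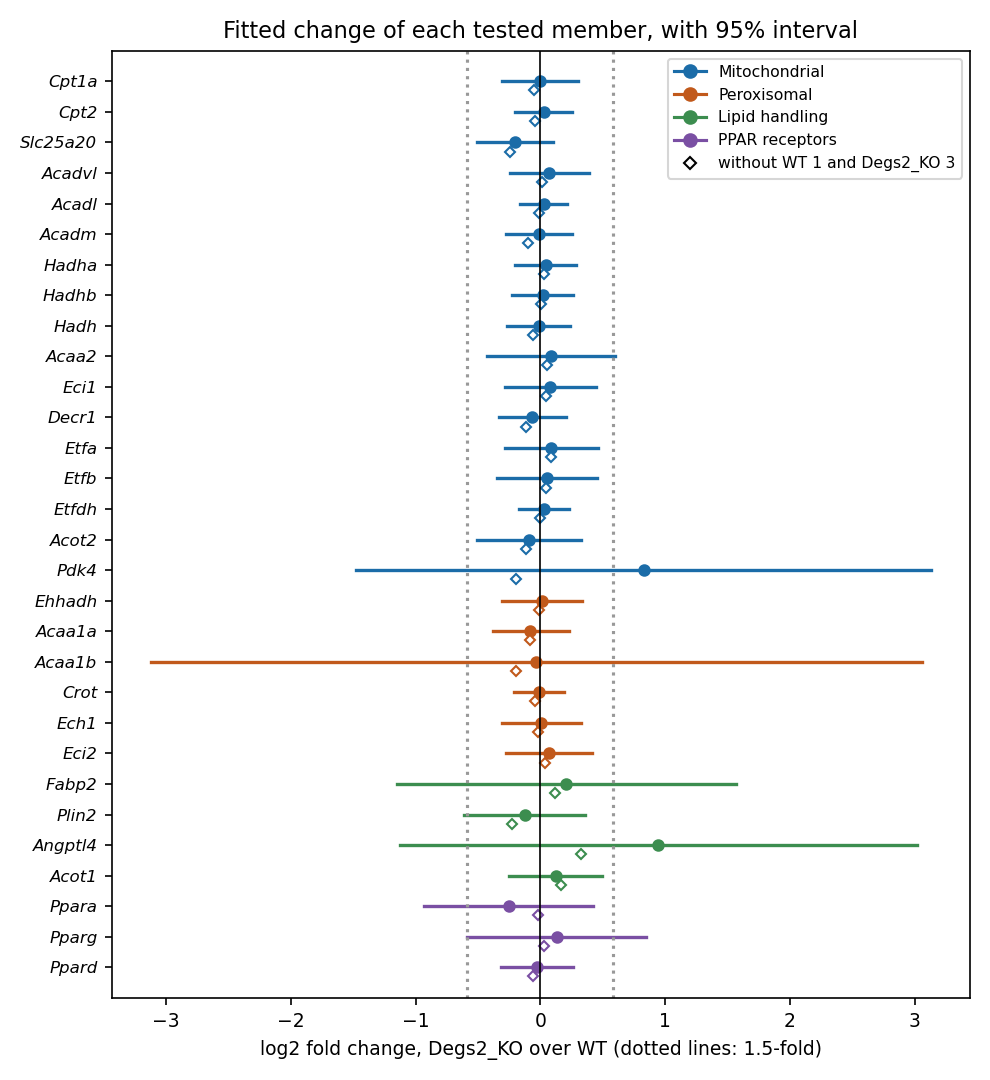
Fitted log2 fold change of each tested member, Degs2_KO over WT, coloured by role; filled points and bars are the value and 95% interval over 8 libraries and open diamonds the value without WT replicate 1 and Degs2_KO replicate 3. All intervals cross 0; those of Pdk4, Acaa1b, Fabp2 and Angptl4 are the widest.

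Levels per length ordered the members over several orders of magnitude. In CPM per kb of exon, the WT mean was highest for Fabp2 (186 ± 138; SD, n = 4), an intestinal fatty acid binding protein, but its spread covered that of Acadl (98.5 ± 7.28), a long-chain acyl-CoA dehydrogenase. Etfb, Etfa, Hadh, Ech1, Acadvl, Acaa2 and Cpt1a followed between 73.4 and 53.2, with gaps between neighbours among these 7 that were smaller than the larger SD of the pair. The gap from Cpt1a to the next gene, Hadha (44.8 ± 3.64), was wider than either SD. Genes of mitochondrial oxidation filled most of the upper places, and peroxisomal genes other than Ech1 lay lower, from 19.2 for Acaa1a to 1.12 for Acaa1b. The lowest were Angptl4 (0.147 ± 0.127), Fabp1 (0.141 ± 0.199) and Cd36 (0.0184 ± 0.0193). The lengths merge the exons of all annotated transcripts of a gene, such as 8730 bases for Hadha and 1516 for Acaa2. Before division by length, Hadha (391 CPM in WT) was above Acaa2 (83.3 CPM). The order, and the lower place of peroxisomal genes, therefore depend in part on the annotation.

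**Figure D2:**
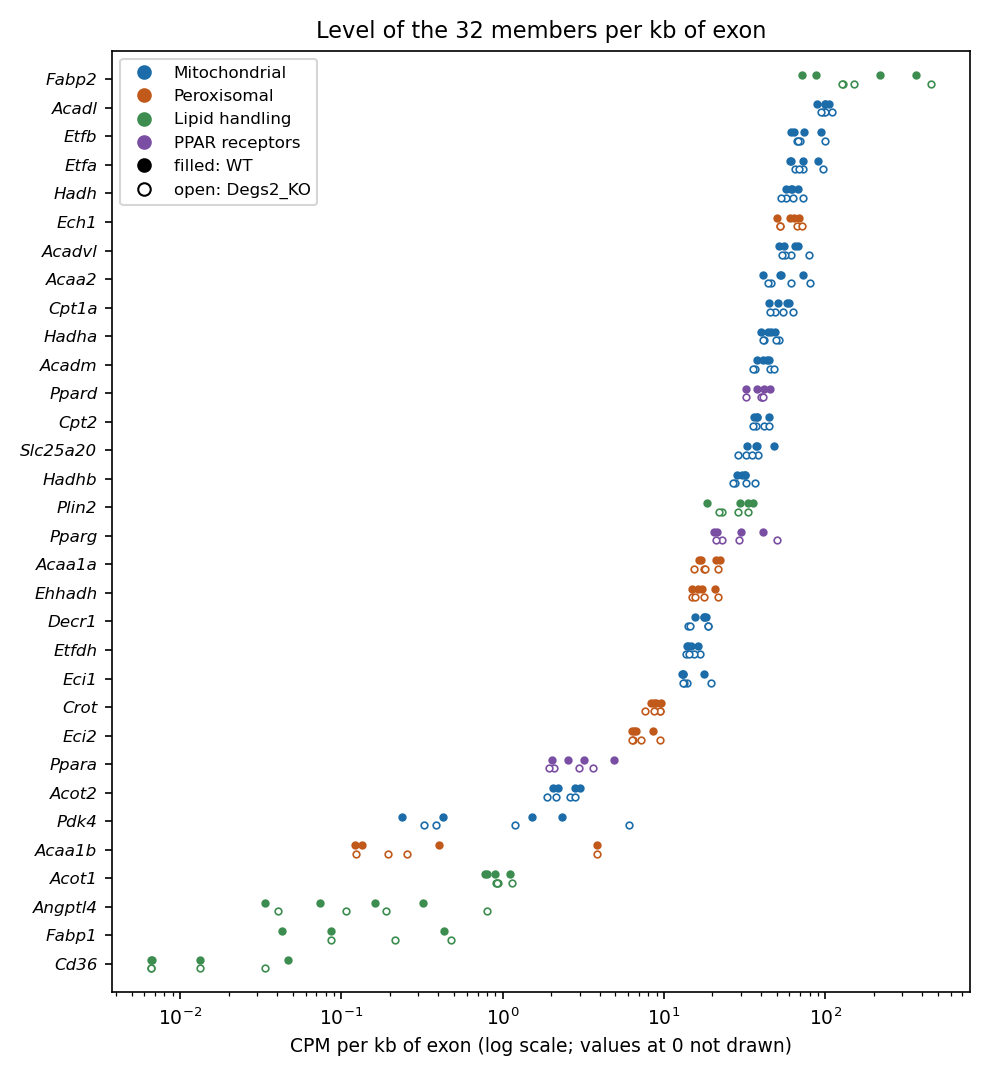
CPM per kb of exon (log axis) of the 32 members in each library, ordered by the WT mean; filled points are WT, open points Degs2_KO, and colours mark the role. Fabp2 is at the top, Cd36 at the bottom, and the points of both genotypes overlap in each row.

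The carnitine shuttle carries long-chain fatty acids into mitochondria. Cpt1a, the outer membrane carnitine palmitoyltransferase that sets the rate of entry, was at 441, 341, 388 and 457 CPM in WT replicates 1 to 4 and 420, 374, 479 and 350 CPM in Degs2_KO replicates 1 to 4. Degs2_KO replicate 3 was highest and WT replicate 2 lowest, and the groups covered almost the same range. Its log2 fold change was -0.005 ± 0.13 (SE), with a 95% interval of the fold change of 0.81 to 1.23. Slc25a20, the carnitine-acylcarnitine translocase of the inner membrane, had the smallest p of the 30 members (adjusted p = 1 by edgeR). It was at 181, 158, 182 and 232 CPM in WT replicates 1 to 4 and 185, 157, 171 and 140 CPM in Degs2_KO replicates 1 to 4. WT replicate 4 was high and Degs2_KO replicate 4 low, with the rest between; the log2 fold change was -0.21 ± 0.13, and -0.24 ± 0.16 without WT replicate 1 and Degs2_KO replicate 3. Cpt2, which remakes the acyl-CoA inside, ranged over 85.2 to 108 CPM, with a log2 fold change of 0.026 ± 0.10.

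The first dehydrogenation is done by chain-length-specific enzymes. Acadvl, for very long chains, was at 182, 139, 149 and 173 CPM in WT replicates 1 to 4 and 165, 152, 212 and 146 CPM in Degs2_KO replicates 1 to 4. Its highest libraries were Degs2_KO replicate 3 and WT replicate 1, and its log2 fold change was 0.071 ± 0.14; the antisense-strand gene Dvl2 overlaps 42.9% of its exon length, and the labels do not state if strand was used in counting. Acadl was at 178, 200, 199 and 213 CPM in WT replicates 1 to 4 and 221, 195, 200 and 188 CPM in Degs2_KO replicates 1 to 4. It was the steadiest after Etfdh, with a highest library 1.24 times the lowest, and in contrast to Acadvl its lowest value was in WT replicate 1. Acadm, for medium chains, ranged over 139 to 189 CPM. The log2 fold changes were 0.027 ± 0.085 for Acadl and -0.01 ± 0.12 for Acadm.

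Hadha and Hadhb encode the alpha and beta subunits of the mitochondrial trifunctional protein, which carries out the last steps on long chains. Hadha was at 403, 350, 386 and 425 CPM in WT replicates 1 to 4 and 454, 366, 435 and 359 CPM in Degs2_KO replicates 1 to 4. Hadhb was at 202, 186, 210 and 208 CPM in WT replicates 1 to 4 and 243, 183, 213 and 178 CPM in Degs2_KO replicates 1 to 4. For both, Degs2_KO replicate 1 was the highest library and the groups overlapped, with log2 fold changes of 0.045 ± 0.11 and 0.018 ± 0.11; 19.7% of the 50-base stretches of Hadhb transcripts also occur in other genes, mostly in Gm13910. Hadh, the dehydrogenase for shorter chains, ranged over 263 to 364 CPM (-0.011 ± 0.11). Acaa2, the mitochondrial thiolase, was at 111, 62.1, 80.8 and 79.4 CPM in WT replicates 1 to 4 and 93.1, 70.2, 122 and 67.3 CPM in Degs2_KO replicates 1 to 4. WT replicate 1 and Degs2_KO replicate 3 were its 2 highest libraries and WT replicate 2 its lowest; the log2 fold change was 0.082 ± 0.23.

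Auxiliary enzymes handle unsaturated chains. Eci1, an enoyl-CoA isomerase, was at 37.6, 27.4, 28.0 and 28.0 CPM in WT replicates 1 to 4 and 29.6, 28.2, 41.8 and 28.1 CPM in Degs2_KO replicates 1 to 4. WT replicate 1 and Degs2_KO replicate 3 lay above a narrow band that held the other 6 libraries, and the log2 fold change was 0.078 ± 0.16. Without those libraries the groups of Eci1 did not overlap, but the values differed by little, 0.048 ± 0.072 on the log2 scale. In that setting 2 of 30 members had groups apart (the other was Acot1), against 9.4% of all genes; the same 2 were apart without WT replicate 1 alone, against 6.4%. Decr1, a dienoyl-CoA reductase, ranged over 54.7 to 73.2 CPM (-0.064 ± 0.12).

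Electrons leave through the electron transfer flavoprotein (Etfa, Etfb) and its ubiquinone oxidoreductase (Etfdh). Etfa was at 165, 113, 111 and 134 CPM in WT replicates 1 to 4 and 133, 120, 177 and 125 CPM in Degs2_KO replicates 1 to 4. Etfb was at 110, 71.2, 74.2 and 86.5 CPM in WT replicates 1 to 4 and 81.7, 78.1, 116 and 78.4 CPM in Degs2_KO replicates 1 to 4. Both flavoprotein subunits were highest in WT replicate 1 and Degs2_KO replicate 3. Etfdh was not: it ranged over 103 to 126 CPM, the narrowest relative range of the 30 tested members, with Degs2_KO replicate 1 highest. The log2 fold changes were 0.088 ± 0.16, 0.053 ± 0.18 and 0.027 ± 0.087. The same-strand gene model Gm45233 overlaps 53.0% of the exon length of Etfb.

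The remaining mitochondrial members act beside the cycle. Pdk4 is a kinase that blocks pyruvate dehydrogenase when fatty acids are used, and is a well-known PPAR target. It was at 8.19, 0.833, 1.5 and 5.35 CPM in WT replicates 1 to 4 and 4.21, 1.35, 21.5 and 1.14 CPM in Degs2_KO replicates 1 to 4. Degs2_KO replicate 3 was far above the rest, WT replicate 1 came next and WT replicate 4 and Degs2_KO replicate 1 followed, so both groups ran from low to high. The highest library was 25.8 times the lowest. The log2 fold change was 0.83 ± 1.02 (95% interval of the fold change 0.359 to 8.75) over 8 libraries. Leaving out a single library moved it from -0.83 (without Degs2_KO replicate 3) up to 1.47. Without both Degs2_KO replicate 3 and WT replicate 1 it was -0.20 ± 0.75. Acot2, a mitochondrial thioesterase that frees fatty acids from CoA, ranged over 4.13 to 6.59 CPM (-0.092 ± 0.18). It shares 27.7% of its 50-base stretches with other genes, mostly its paralog Acot1, so the split of fragments between them is uncertain.

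Among the peroxisomal genes, Ehhadh, the bifunctional enzyme of the inducible cycle, was at 61.9, 44.8, 48.4 and 51.5 CPM in WT replicates 1 to 4 and 52.7, 44.7, 64.4 and 46.2 CPM in Degs2_KO replicates 1 to 4. Its 2 highest libraries were again Degs2_KO replicate 3 and WT replicate 1, and its log2 fold change was 0.01 ± 0.14. Ech1 and Eci2, an isomerase pair found in both organelles, ranged over 114 to 164 CPM and 35.0 to 52.6 CPM, with log2 fold changes of 0.003 ± 0.14 and 0.068 ± 0.15. Crot, the carnitine octanoyltransferase that exports shortened chains, was the exception, with 41.9 to 52.5 CPM and its highest library in WT replicate 3 (-0.012 ± 0.087). Of the 6 genes, 3 were fitted higher and 3 lower around a median of -0.005 on the log2 scale. None of the 6 passed edgeR's adjusted threshold, and 0 reached an unadjusted p under 0.05.

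The peroxisomal thiolase paralogs Acaa1a (chromosome 9, 119339676 to 119350299) and Acaa1b (chromosome 9, 119148023 to 119157093; GRCm38) showed very different spreads. Acaa1a was at 98.8, 73.0, 75.0 and 92.5 CPM in WT replicates 1 to 4 and 78.6, 79.3, 95.3 and 67.9 CPM in Degs2_KO replicates 1 to 4. WT replicate 1 was highest and Degs2_KO replicate 3 next, and the highest library of Acaa1a was 1.46 times the lowest. Acaa1b was at 7.54, 0.238, 0.263 and 0.787 CPM in WT replicates 1 to 4 and 0.241, 0.38, 7.5 and 0.498 CPM in Degs2_KO replicates 1 to 4. These values put WT replicate 1 and Degs2_KO replicate 3 at nearly the same level, with every other library of either genotype at 0.787 CPM or below, and the highest library at 31.7 times the lowest. In fragments, Acaa1b had 239, 11, 12 and 31 in WT and 10, 17, 325 and 22 in Degs2_KO. The genotype means were almost equal, 2.21 ± 3.57 CPM in the WT libraries and 2.16 ± 3.57 CPM in the mutant libraries (SD, n = 4 each), and the log2 fold change was -0.034 ± 1.36; it was 2.34 without WT replicate 1 and -2.56 without Degs2_KO replicate 3, and -0.20 ± 0.54 without both. Of the 50-base stretches of Acaa1b, 30.5% also occur in Acaa1a, so fragments of the far more abundant Acaa1a could be assigned to it; how much of the low level this makes up was not tested. The antisense-strand gene Dlec1 overlaps 11.4% of the exon length of Acaa1b.

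Lipid-handling genes take up, bind or store fatty acids. Fabp2 (chromosome 3, 122895072 to 122899506), which carries fatty acids in enterocytes, was at 354, 69.0, 84.3 and 212 CPM in WT replicates 1 to 4 and 147, 125, 436 and 123 CPM in Degs2_KO replicates 1 to 4. Degs2_KO replicate 3 and WT replicate 1 were highest, WT replicate 4 came next, and the groups overlapped. Its log2 fold change was 0.21 ± 0.60 (95% interval of the fold change 0.45 to 2.96), and 0.11 ± 0.39 without both outlying libraries. Angptl4 (chromosome 17, 33773750 to 33781830), a secreted lipoprotein lipase inhibitor and PPAR target, was low, at 1.13, 0.119, 0.263 and 0.573 CPM in WT replicates 1 to 4 and 0.674, 0.38, 2.83 and 0.142 CPM in Degs2_KO replicates 1 to 4. These values are 6 to 122 fragments per library. The order of libraries was close to that of Pdk4, and the log2 fold change was 0.94 ± 0.91 over 8 libraries. Leaving out a single library moved it from -0.39 (without Degs2_KO replicate 3) up to 1.66. It was 0.32 ± 0.68 without both outlying libraries.

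Plin2 (chromosome 4, 86648386 to 86670060), which coats lipid droplets, ran the other way from these. It was at 64.5, 117, 126 and 103 CPM in WT replicates 1 to 4 and 116, 102, 80.4 and 77.3 CPM in Degs2_KO replicates 1 to 4. WT replicate 1 was the lowest library, and Degs2_KO replicates 4 and 3 were next; the log2 fold change was -0.13 ± 0.21. Leaving out 1 library moved that value from -0.29 (without WT replicate 1) to -0.014 (without WT replicate 3), and it was -0.22 ± 0.15 without both outlying libraries. Acot1, a cytosolic thioesterase, ranged over 3.03 to 4.46 CPM (0.12 ± 0.17). Cd36, a fatty acid translocase, had 5, 2, 1 and 1 fragments in WT and 5, 1, 2 and 1 in Degs2_KO. Fabp1, the liver-type binding protein of the proximal intestine, had 8, 2, 0 and 1 fragments in WT and 0, 5, 11 and 2 in Degs2_KO, and a count of 0 allows up to 3 fragments. The 4 libraries with at least 5 fragments of either gene were WT replicate 1, Degs2_KO replicate 1, Degs2_KO replicate 2 and Degs2_KO replicate 3. No comparison was made for either gene at that depth.

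The 3 receptors differed in level and in spread. Ppard was the highest per kb (39.3 ± 5.67 in WT), then Pparg (28.3 ± 9.72) and, well below, Ppara (3.16 ± 1.25). Pparg (chromosome 6, 115360951 to 115490399) was at 122, 63.0, 60.0 and 89.1 CPM in WT replicates 1 to 4 and 86.2, 67.9, 149 and 62.5 CPM in Degs2_KO replicates 1 to 4. Degs2_KO replicate 3 and WT replicate 1 were highest and the other 6 libraries held 60.0 to 89.1 CPM, for a log2 fold change of 0.13 ± 0.32, and 0.033 ± 0.18 without both. Ppara was at 18.8, 7.81, 12.2 and 9.74 CPM in WT replicates 1 to 4 and 13.9, 7.95, 11.5 and 7.45 CPM in Degs2_KO replicates 1 to 4. WT replicate 1 was highest, but Degs2_KO replicate 3 lay below both WT replicate 3 and Degs2_KO replicate 1. Its log2 fold change was -0.25 ± 0.30. Ppard was at 285, 313, 242 and 342 CPM in WT replicates 1 to 4 and 243, 304, 302 and 309 CPM in Degs2_KO replicates 1 to 4. WT replicate 3 and Degs2_KO replicate 1 were its lowest libraries, and the log2 fold change was -0.029 ± 0.13.

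**Figure D3:**
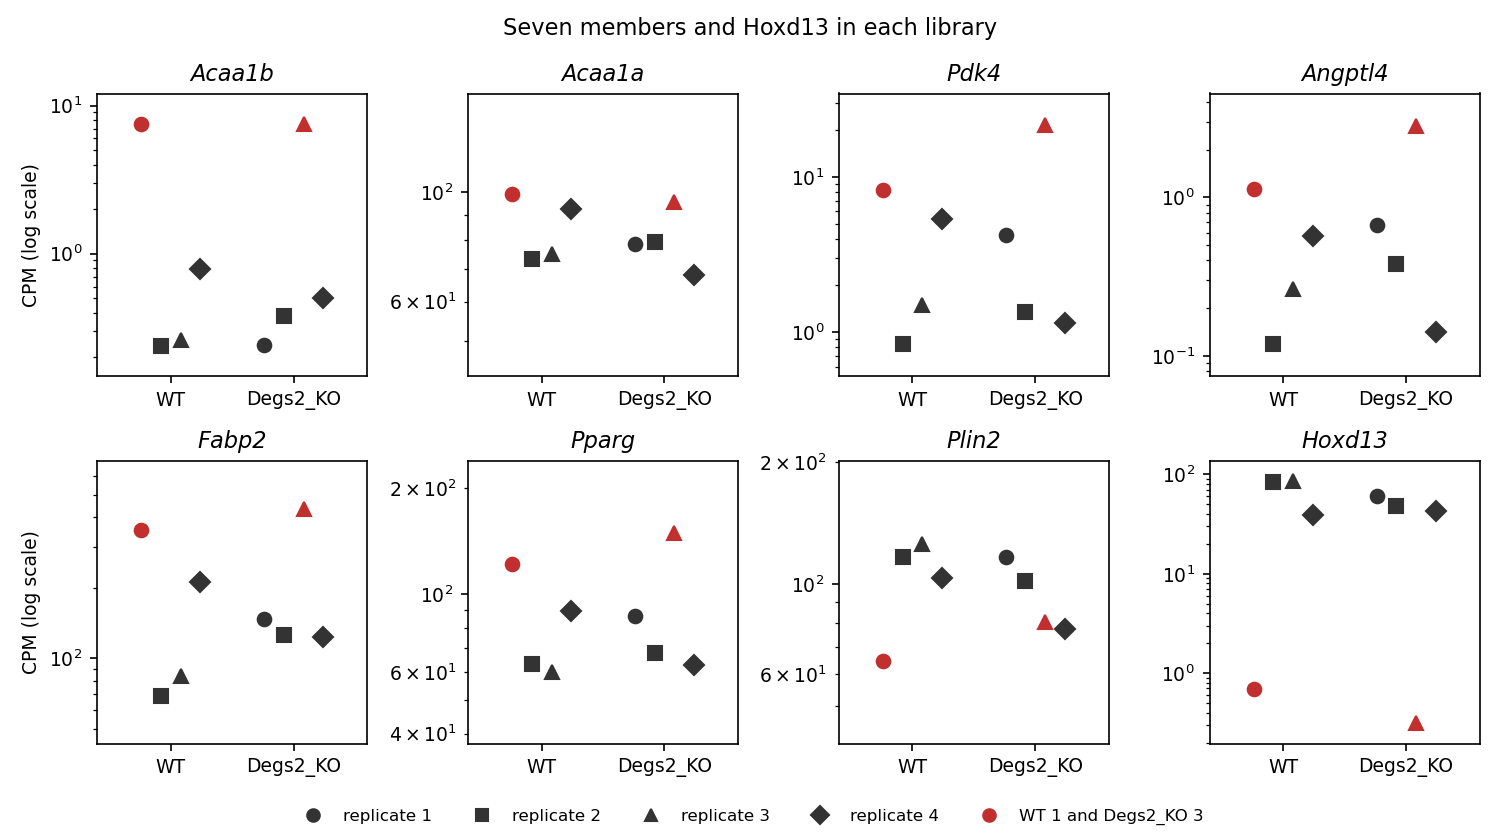
CPM (log axis, scaled per panel) of 7 members and of the posterior gene Hoxd13 in each library; marker shapes give the replicate number and red marks WT replicate 1 and Degs2_KO replicate 3. In Acaa1b, Acaa1a, Pdk4, Angptl4, Fabp2 and Pparg the red points are the 2 highest, in Acaa1a by a small margin. In Hoxd13 they are the 2 lowest, and Plin2 has its lowest value in WT replicate 1.

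The median deviation of the 30 members from their own means over the 8 libraries, in log2 CPM, was 0.21, -0.19, -0.053 and 0.092 in WT replicates 1 to 4 and 0.086, -0.15, 0.25 and -0.20 in Degs2_KO replicates 1 to 4. Over all genes tested the same median lay between -0.004 and 0.008 in every library. Degs2_KO replicate 3 and WT replicate 1 were highest and Degs2_KO replicate 4 and WT replicate 2 lowest, so each genotype held both ends. In 16 of 30 members those 2 libraries were the 2 highest of the 8, against 17.8% of all genes tested, and in 0 members the 2 lowest, against 16.6%. By role the 16 were 7 of 17 mitochondrial genes (Acadvl, Hadh, Acaa2, Eci1, Etfa, Etfb and Pdk4), 5 of 6 peroxisomal (all but Crot), 3 of 4 tested lipid-handling (Fabp2, Angptl4 and Acot1) and Pparg.

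**Figure D4:**
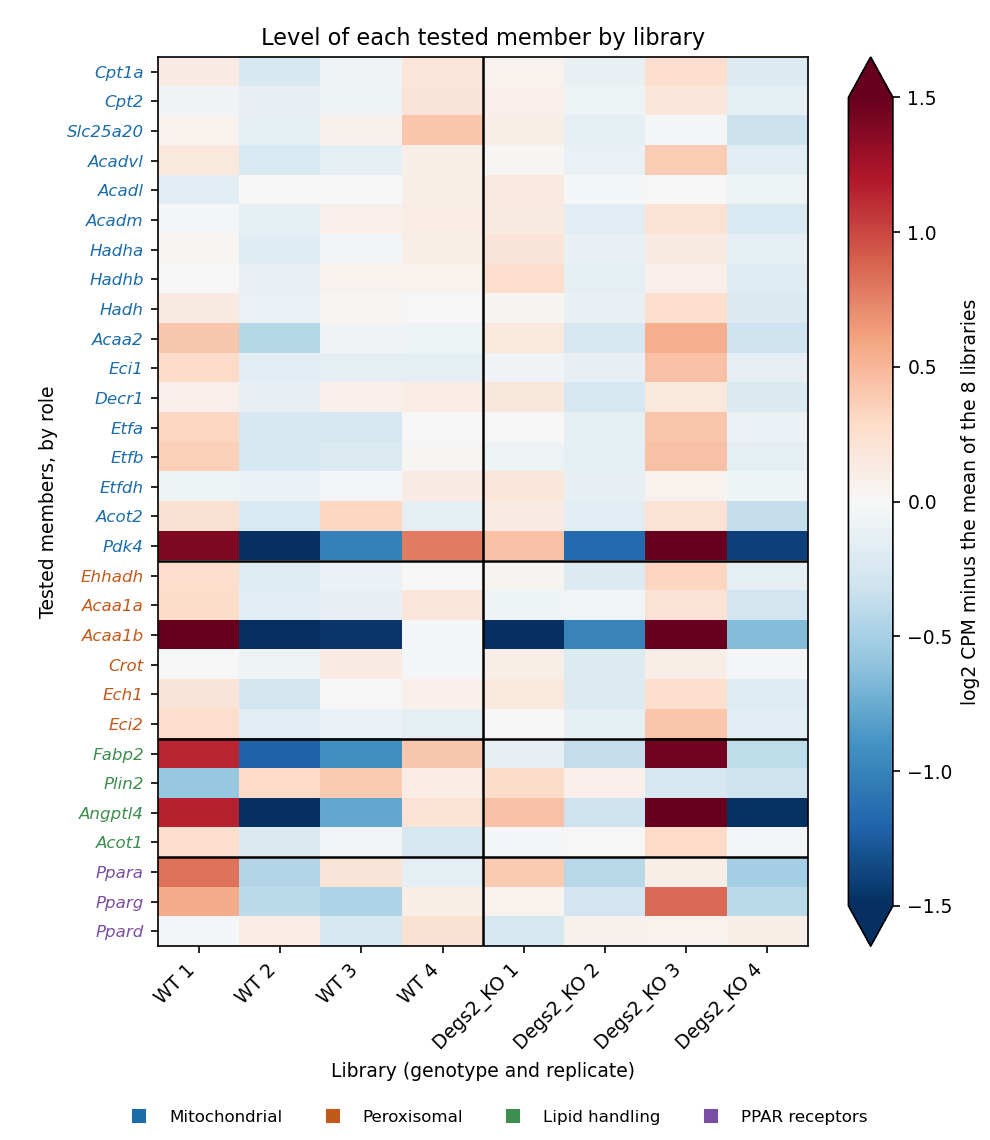
Deviation of each tested member (rows, by role) from its mean over the 8 libraries (columns), in log2 CPM, with colours capped at 1.5. The columns of WT replicate 1 and Degs2_KO replicate 3 are mostly red, the row of Plin2 is blue in both, and neither genotype forms a block.

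Other genes also set these libraries apart, in both directions. Car1, a carbonic anhydrase of colonocytes, was at 6179, 536, 1020 and 1941 CPM in WT replicates 1 to 4 and 1276, 981, 6570 and 522 CPM in Degs2_KO replicates 1 to 4, highest in the same 2 libraries. Slc10a2, the ileal bile acid transporter, was at 101, 3.31, 4.89 and 11.7 CPM in WT replicates 1 to 4 and 3.47, 3.46, 70.3 and 2.11 CPM in Degs2_KO replicates 1 to 4, and Alpi, an intestinal alkaline phosphatase, at 31.4, 3.33, 3.94 and 19.2 CPM in WT replicates 1 to 4 and 6.6, 6.12, 44.1 and 4.79 CPM in Degs2_KO replicates 1 to 4. In WT replicate 1 and Degs2_KO replicate 3 the 14 genes of handling stress summed to 2570 and 2870 CPM against 4400 to 6420 CPM in the other 6, and the 12 T cell genes to 33.5 and 29.4 CPM against 4.18 to 17.8 CPM. The 14 absorptive colonocyte genes summed to 19100 and 20400 CPM against 12300 to 18600 CPM, a gap that came from Car1: the other 13 summed to 12900 and 13800 CPM, inside the 11300 to 16600 CPM of the other 6. Of that list only Car1 had the pair as its 2 highest libraries, and 3 genes had it as their 2 lowest: Ceacam20 (114 and 115 against 151 to 243 CPM), Scnn1a (192 and 193 against 226 to 292 CPM) and Ms4a12 (5.88 and 5.13 against 8.49 to 12.03 CPM). The 17 small intestine and proximal genes summed to 420 and 321 CPM against 188 to 364 CPM, and without Apob, the largest term, to 241 and 213 CPM against 103 to 125 CPM; 4 of the 17 (Fabp6, Sis, Alpi and Slc10a2) had the pair as their 2 highest libraries. The pair gave the 2 highest values for 9 of the 12 T cell genes and the 2 lowest for 8 of the 14 handling stress genes and 6 of the 12 myeloid genes. Summed levels were less far apart for the 14 genes of dividing cells, at 976 and 858 CPM against 570 to 1000 CPM. Of the 17 small intestine and proximal genes, Apoa1, Apoa4, Apoc3 and Lct were at 1.04 CPM or less in every library. Sis, of the same list, was at 13.9 CPM in WT replicate 1 and 6.38 CPM in Degs2_KO replicate 3. It was at 0.237 to 0.668 CPM in the other 6. By genotype, all 14 handling stress genes were fitted higher in Degs2_KO, with a median log2 fold change of 0.337, against 47.4% of all genes. Of these 14 genes 0 passed edgeR's adjusted threshold, and their summed levels overlapped, at 2570 to 5810 CPM in WT and 2870 to 6420 CPM in Degs2_KO. The part of position, handling or other cells in the pattern of the members or in the genotype comparison was not tested.

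The same pathways hold 106 further genes that were listed by function. Of these, 91 passed the count filter and 0 passed edgeR's adjusted threshold; Degs2_KO was fitted above WT for 43 and below it for 48, and the median of the log2 fold changes was -0.001. At an unadjusted p under 0.05 edgeR found 3 (1.13% of all genes), and 2 had groups that did not overlap (1.04% of all genes). Acsl4, a long-chain acyl-CoA synthetase, was at 26.3, 24.6, 24.1 and 25.6 CPM in WT replicates 1 to 4 and 29.8, 27.2, 29.7 and 35.1 CPM in Degs2_KO replicates 1 to 4. Every Degs2_KO library lay above every WT library, and the log2 fold change was 0.28 ± 0.091 (adjusted p = 1 by edgeR). Acad12, an acyl-CoA dehydrogenase family member, had a log2 fold change of -0.35 ± 0.15 with overlapping groups, and Hnf4g, a nuclear receptor of the intestine, -0.24 ± 0.10.

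The next by p were Acad10 (-0.15 ± 0.083), another dehydrogenase family member whose groups did not overlap either, and the pyruvate dehydrogenase kinases Pdk3 (0.17 ± 0.11) and Pdk2 (-0.18 ± 0.12). Unlike Pdk4, neither kinase had WT replicate 1 and Degs2_KO replicate 3 as its 2 highest libraries: Pdk3 ranged over 22.9 to 32.2 CPM and Pdk2 over 56.2 to 85.3 CPM. Without those libraries the groups of both kinases were apart, with log2 fold changes of 0.28 ± 0.093 for Pdk3 and -0.32 ± 0.11 for Pdk2 (adjusted p = 0.999 each by edgeR). In that setting 5 of the 91 genes had an unadjusted p under 0.05 (Acad12, Pdk2, Pdk3, Acsl4 and Nr1h3, the last named after its value was seen), against 4.01% of all genes, and 7 had groups that did not overlap, against 9.4%. Again 0 of the 91 passed edgeR's adjusted threshold. By role, 15 of 27 tested mitochondrial genes of the wider list were fitted higher, 12 of 25 peroxisomal, 13 of 24 lipid-handling and 3 of 15 of the receptors and their cofactors, the last with a median log2 fold change of -0.073. WT replicate 1 and Degs2_KO replicate 3 were the 2 highest libraries for 36 of the 91, among them 15 of 24 lipid-handling genes, 11 of 25 peroxisomal, 9 of 27 mitochondrial and 1 of 15 receptors and cofactors (17.8% of all genes). They were the 2 lowest for 9 (16.6% of all genes), of which 6 were receptors or cofactors.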

How the data were processed

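RNA sequencing of 8 libraries was summarised by the authors as estimated counts per gene, deposited in a table of 54141 genes. Per the submitters' processing notes, cutadapt 1.9, TopHat2 2.0.10, Cufflinks 2.1.1, Cuffdiff and the build mm10 were used; neither the annotation nor the use of strand is named there. The deposited estimated counts were scaled per library: dividing by the step between low values gave 32.8 to 49.8 M fragments. They were rounded to whole numbers as deposited. The 47 genes with a failed estimate or too many fragments, among them Hnf4a, were left out.

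The genotype test was that of edgeR 4.0.16 under R 4.3.3 (quasi-likelihood test, TMM factors, filterByExpr with a minimum count of 10 and a total of 15, no covariates), with Benjamini-Hochberg adjustment over 16132 genes and a threshold of 0.05. Levels are TMM-normalised CPM; log2 CPM used a prior count of 2. Exon lengths, merged over all annotated transcripts of a gene, and positions came from GENCODE M21 (GRCm38). DESeq2 1.42.0, limma 3.58.1, other filters, scalings and blocks, and leaving out libraries were alternatives. The code was tested on simulated data. Intervals of fold changes are 95%; limits from fragments cover counting error only.

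The members and gene lists were chosen with earlier results of these data known. All 32 members are named; of the further pathway genes, the 6 with the smallest unadjusted p are named since none passed the threshold, and of each marker list the genes needed to show its level; 1 result on a marker gene is not reported here. Of 272 listed symbols 1 matched by an older symbol and 1 had no match. Promoter windows are from RefSeq, GRCm38.p6.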

Additional observations from a re-analysis of the deposited data

Results flagged for a closer look

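Within a genotype, 11 of 78 groups of 4 values held a library far from the other 3 by Dixon's criterion at 95%; chance gives about 1 in 20 groups, and members measured in the same libraries are not independent. Degs2_KO replicate 3 was the distant library for Eci1 (41.8 CPM against 28.1 to 29.6 in the others), Etfb (116 against 78.1 to 81.7), Pdk4 (21.5 against 1.14 to 4.21), Acaa1b (7.5 against 0.241 to 0.498), Fabp2 (436 against 123 to 147) and Acot1 (4.46 against 3.59 to 3.65). WT replicate 1 was the distant library for Eci1 (37.6 CPM against 27.4 to 28.0), Acaa1b (7.54 against 0.238 to 0.787), Eci2 (47.4 against 35.1 to 37.1) and Cd36 (0.169 against 0.0239 to 0.0476, which is 5 fragments against 1 or 2). Ppard had a low value in Degs2_KO replicate 1 (243 CPM against 302 to 309).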

How the results depend on the processing

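No member passed the threshold under any of the 19 alternatives, with a smallest adjusted p of 0.879 (edgeR, without WT replicate 1), and the median log2 fold change of the members stayed between -0.093 and 0.088. Over all genes, DESeq2 called 2 genes, Degs2 (log2 fold change -1.06) and Dlk1, where edgeR called 0. The count of genes at an unadjusted p under 0.05 went from 183 to 782 without WT replicate 1, 650 when Degs2_KO replicate 3 was dropped as well, 298 and 292 when Degs2_KO replicate 1 or 3 alone was dropped, and 401 if low genes stayed in. Adding the replicate block gave 99. A block on pairs with close ID numbers, over 6 libraries, gave 79. The pairs were WT replicate 1 with Degs2_KO replicate 1, WT replicate 2 with Degs2_KO replicate 3, and WT replicate 3 with Degs2_KO replicate 4. An ID number is given for each library, and whether it marks a mouse or a batch was not tested. Members whose groups did not overlap numbered 0 to 2 when libraries were left out; the 2, Eci1 and Acot1, appeared without WT replicate 1 (6.4% of all genes). Of 682 pairs of a named gene and an alternative, 77 had the opposite sign of log2 fold change, none with a call, and the cause was not tested. For the 27 genes whose sign turned in at least 1 alternative, leaving out libraries gave log2 fold changes of Cpt1a -0.095 to 0.061, Cpt2 -0.044 to 0.099, Acadvl -0.057 to 0.143, Acadl -0.014 to 0.065, Acadm -0.096 to 0.059, Hadha -0.006 to 0.098, Hadhb -0.066 to 0.079, Hadh -0.104 to 0.056 and Acaa2 -0.116 to 0.259. It gave Eci1 -0.079 to 0.208, Decr1 -0.131 to 0.007, Etfa -0.051 to 0.229, Etfb -0.106 to 0.206, Etfdh -0.020 to 0.076, Acot2 -0.182 to 0.005, Pdk4 -0.828 to 1.473, Ehhadh -0.109 to 0.116 and Acaa1a -0.173 to 0.010. For the rest of these 27 it gave Acaa1b -2.555 to 2.335, Crot -0.049 to 0.049, Ech1 -0.085 to 0.076, Eci2 -0.078 to 0.185, Fabp2 -0.452 to 0.783, Angptl4 -0.386 to 1.664, Ppara -0.431 to 0.045, Pparg -0.209 to 0.380 and Ppard -0.113 to 0.057. The other 9 genes kept their sign, among them Plin2 at -0.290 to -0.014, Slc25a20 at -0.280 to -0.090 and Acot1 at 0.043 to 0.253, and Acsl4 at 0.201 to 0.328, Acad12 at -0.431 to -0.259, Hnf4g at -0.314 to -0.172, Acad10 at -0.202 to -0.100, Pdk3 at 0.108 to 0.285 and Pdk2 at -0.323 to -0.100. DESeq2 gave 0.002 for Cpt1a. With no filter Cpt1a was at 0.008, Acadm at 0.002 and Hadh at 7.1e-05. The block on close ID numbers, with 6 libraries, gave Cpt1a 0.089, Acadm 0.068, Hadh 0.006, Decr1 0.024, Acaa1b 0.621, Crot 0.039 and Ppard 0.024. Ech1 was at -0.001 with limma-trend, limma-voom and the replicate block, and at -0.006 with the stricter filter. Deviations of same-numbered libraries correlated at -0.425, 0.444, -0.560 and -0.102 across 16132 genes, and no WT library correlated best with its own number. The pairs with close ID numbers correlated at -0.425, -0.530 and 0.205. The first principal component, on which WT replicate 1 and Degs2_KO replicate 3 stood apart, held 50.3% of the variance and weighs on these values. Whether either number marks a shared preparation was not tested. Depth limited Cd36 and Fabp1, at 0 to 11 fragments per library.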
